A study of Mus musculus with 23 samples.

Results

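The 10 genes described here encode proteins that sense, export, carry, take up or store lipid in macrophages, or that mark lipid-laden macrophages: Nr1h3, Abca1, Abcg1, Apoe, Trem2, Gpnmb, Lpl, Fabp4, Fabp5 and Plin2. They were chosen by name, and gene identifiers were matched to symbols in both deposited tables. All 10 of them were found among 36793 genes, and each had a value in 23 libraries of 8 groups. RNA was sequenced from macrophages sorted out of implanted head and neck tumours of mice, from the same tumour lines in culture, and from colonies grown out of sorted macrophages. Sorting kept cells with CD45 and CD11b and with high F4/80 and removed those with Gr1, and each macrophage library pooled 3 to 4 mice. MEER cells are a Ras-driven mouse oropharyngeal model, used here with papillomavirus genes (HPV+ MEER) and without (HPV- MEER), and their tumours were subcutaneous in C57/Bl6 mice. SCCVII, spelled SSCVII in some labels, is an HPV-negative squamous carcinoma line whose tumours were subcutaneous in C3H/HeJ mice.

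The groups were macrophages from HPV- MEER, HPV+ MEER and SCCVII tumours, the 3 lines in culture, and colonies of HPV- MEER and of SCCVII origin kept for 9 days in haematopoietic stem cell medium. Each group had 3 libraries, except the SCCVII colonies with 2, and the HPV- MEER macrophages are numbered 1, 2 and 4. The line libraries were aliquots of cultured cells, and their spread, on which the p-values rest, may be only technical. Each HPV status stands for 1 line, and effects of the virus and of the line itself cannot be told apart. Between MEER and SCCVII the tumour line and the mouse strain change together and cannot be told apart. Xist, a transcript of female cells, read after its values were seen, was at 317 to 371 CPM (library-scaled counts) in SCCVII macrophages and at most 0.0324 CPM in the MEER macrophages. A difference in the sex of the mice would therefore go with line and strain and cannot be told apart from them.

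Macrophages meet lipid as lipoproteins, dead cells and membranes, and pass the cholesterol on before it becomes toxic. Sterols activate the liver X receptor LXRα, encoded by Nr1h3, which pairs with a retinoid X receptor and switches on the exporters Abca1 and Abcg1 and the carrier apolipoprotein E. Fatty acids are freed from lipoproteins by lipoprotein lipase, bound in the cytosol by fatty acid binding proteins and kept in droplets coated by perilipin 2. Cells with high Trem2, Gpnmb, Lpl, Fabp5 and Apoe are known as lipid-associated macrophages in obese fat, atheroma and tumours.

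The promoters of 6 of the 10 genes were in the table of RefSeq promoters used (build GRCm38.p6), and Abcg1, Lpl, Fabp4 and Fabp5 were not. The 250 bases before the start are shown for Apoe and its neighbour Apoc2, because these fell together in SCCVII macrophages, and for Abca1 and Plin2, whose changes were smaller. Capitals mark the best match of at most 3 mismatches to the LXR repeat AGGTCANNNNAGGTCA, the best match of at most 2 mismatches to the PPAR repeat AGGTCANAGGTCA, and an exact CACGTG, the box of MiT/TFE and related factors. Both strands were searched, and the 12 fixed letters of each repeat count.
Apoe: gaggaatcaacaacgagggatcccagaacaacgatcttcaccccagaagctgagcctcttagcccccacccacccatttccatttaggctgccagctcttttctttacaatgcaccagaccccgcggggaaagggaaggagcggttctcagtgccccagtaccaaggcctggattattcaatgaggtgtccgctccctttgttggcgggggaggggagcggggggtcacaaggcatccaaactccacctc
Apoc2: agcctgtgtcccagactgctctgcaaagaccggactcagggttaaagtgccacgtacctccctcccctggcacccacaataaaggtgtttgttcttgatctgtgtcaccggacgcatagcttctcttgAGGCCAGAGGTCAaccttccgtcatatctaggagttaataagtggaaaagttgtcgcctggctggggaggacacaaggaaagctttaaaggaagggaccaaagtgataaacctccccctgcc
Abca1: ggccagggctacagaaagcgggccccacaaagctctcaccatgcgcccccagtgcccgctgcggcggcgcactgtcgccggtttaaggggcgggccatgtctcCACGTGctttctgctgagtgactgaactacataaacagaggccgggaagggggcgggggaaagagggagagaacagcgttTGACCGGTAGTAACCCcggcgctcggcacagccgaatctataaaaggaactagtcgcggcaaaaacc
Plin2: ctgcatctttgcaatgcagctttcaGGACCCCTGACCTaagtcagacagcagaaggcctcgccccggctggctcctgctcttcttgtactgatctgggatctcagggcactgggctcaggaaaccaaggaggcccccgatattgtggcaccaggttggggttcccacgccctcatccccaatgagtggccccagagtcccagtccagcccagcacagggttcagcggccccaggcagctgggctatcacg
All 4 lie on the minus strand, Apoe at chr7:19699189-19699438, Apoc2 at chr7:19677942-19678191, Abca1 at chr4:53159896-53160145 and Plin2 at chr4:86670060-86670309. The table gives 3 promoters for Apoe, of which the most upstream is shown. The best LXR match of each of the other two had 4 mismatches, as 70.6% of promoters did or better, and their best PPAR matches 5. The Apoe window shown held no match within these limits. Its best PPAR match had 3 mismatches, as 21.3% of 32851 promoters did or better, and its best LXR match 5 mismatches, as 99.5% did or better. Apoc2 held a PPAR repeat with 1 mismatch at 122 to 110 bases before the start, which 0.484% of promoters matched as well. Plin2 held a PPAR repeat with 2 mismatches at 225 to 213 bases before the start, as 3.24% of promoters did or better. Abca1 held an exact CACGTG at 147 to 142 bases before the start, as did 6.02% of promoters, and an LXR match with 3 mismatches at 67 to 52 bases, which 18.5% matched as well. The LXR and PPAR repeats are built from the same AGGTCA letters and can overlap, and each match is a description of letters.

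Library depth was 26848759 to 47609481 counts. The summed level of 11 macrophage markers (Adgre1, Csf1r, Cd68, Itgam, Fcgr1, Mertk, C1qa, C1qb, C1qc, Ptprc and Cd14) was 14042 to 20876 CPM in HPV- MEER, 16358 to 17712 in HPV+ MEER and 16731 to 18430.4 in SCCVII macrophages. It was 23.8 to 51.9 CPM in the lines. The colonies did not carry it evenly. HPV- MEER colony library 1 had 3752 CPM and SCCVII colony library 1 had 1299, and the other 3 colony libraries had 65.2 to 199. Colony-stimulating factor 1 receptor Csf1r, a defining macrophage marker, was at 558 and 91.0 CPM in the colony libraries numbered 1 and at 0.664 to 10.1 CPM in the other 3. The defining markers of the labelled cell type were thus near background in 3 of 5. All 5 colony libraries carried Krt8 (91.7 to 213 CPM) and Col1a1 (195 to 592 CPM), genes of epithelium and of fibroblasts. The epithelial list of 9 genes summed to 318 to 415 CPM in HPV- MEER and 180 to 265 CPM in SCCVII colonies. Of these 9, 3 and 6 stayed under 1 CPM in every library of the group. The fibroblast list of 7 genes summed to 451 to 1390 and 2799 to 4141 CPM, with 1 and 0 under 1 CPM. Colony results are therefore given with and without the libraries numbered 1, an alternative chosen after the data were seen. Leaving out a SCCVII colony library leaves 1 in that group, so only effect sizes are given for such fits. HPV+ MEER macrophages had more of the markers of some other cells than the other macrophages: the endothelial list summed to 152 to 183 CPM against 19.2 to 45.1, the epithelial list to 426 to 555 against 75.7 to 146, and the dendritic list to 103 to 256 against 6.51 to 21.0. The NK list summed to 66.2 to 126 against 5.69 to 37.3 CPM and the eosinophil list, with Epx at 0, to 46.9 to 67.0 against 1.13 to 5.36 CPM. Of all tested genes 48.7% were called against HPV- MEER, 22.8% higher and 25.9% lower. Of 5 endothelial markers tested 2 rose and 1 fell in that comparison, with 4 of the 8 listed under 1 CPM. Of the epithelial markers tested 2 of 5 rose, of the dendritic 5 of 7 and of the NK markers 4 of 6, and 0 of these fell. Of 2 eosinophil markers tested 1 rose and 1 fell. Of 8 adipocyte markers, none reached 1 CPM in a macrophage library and their sum was at most 0.118 CPM, with Lep at 0 in all 9.

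**Figure D1:**
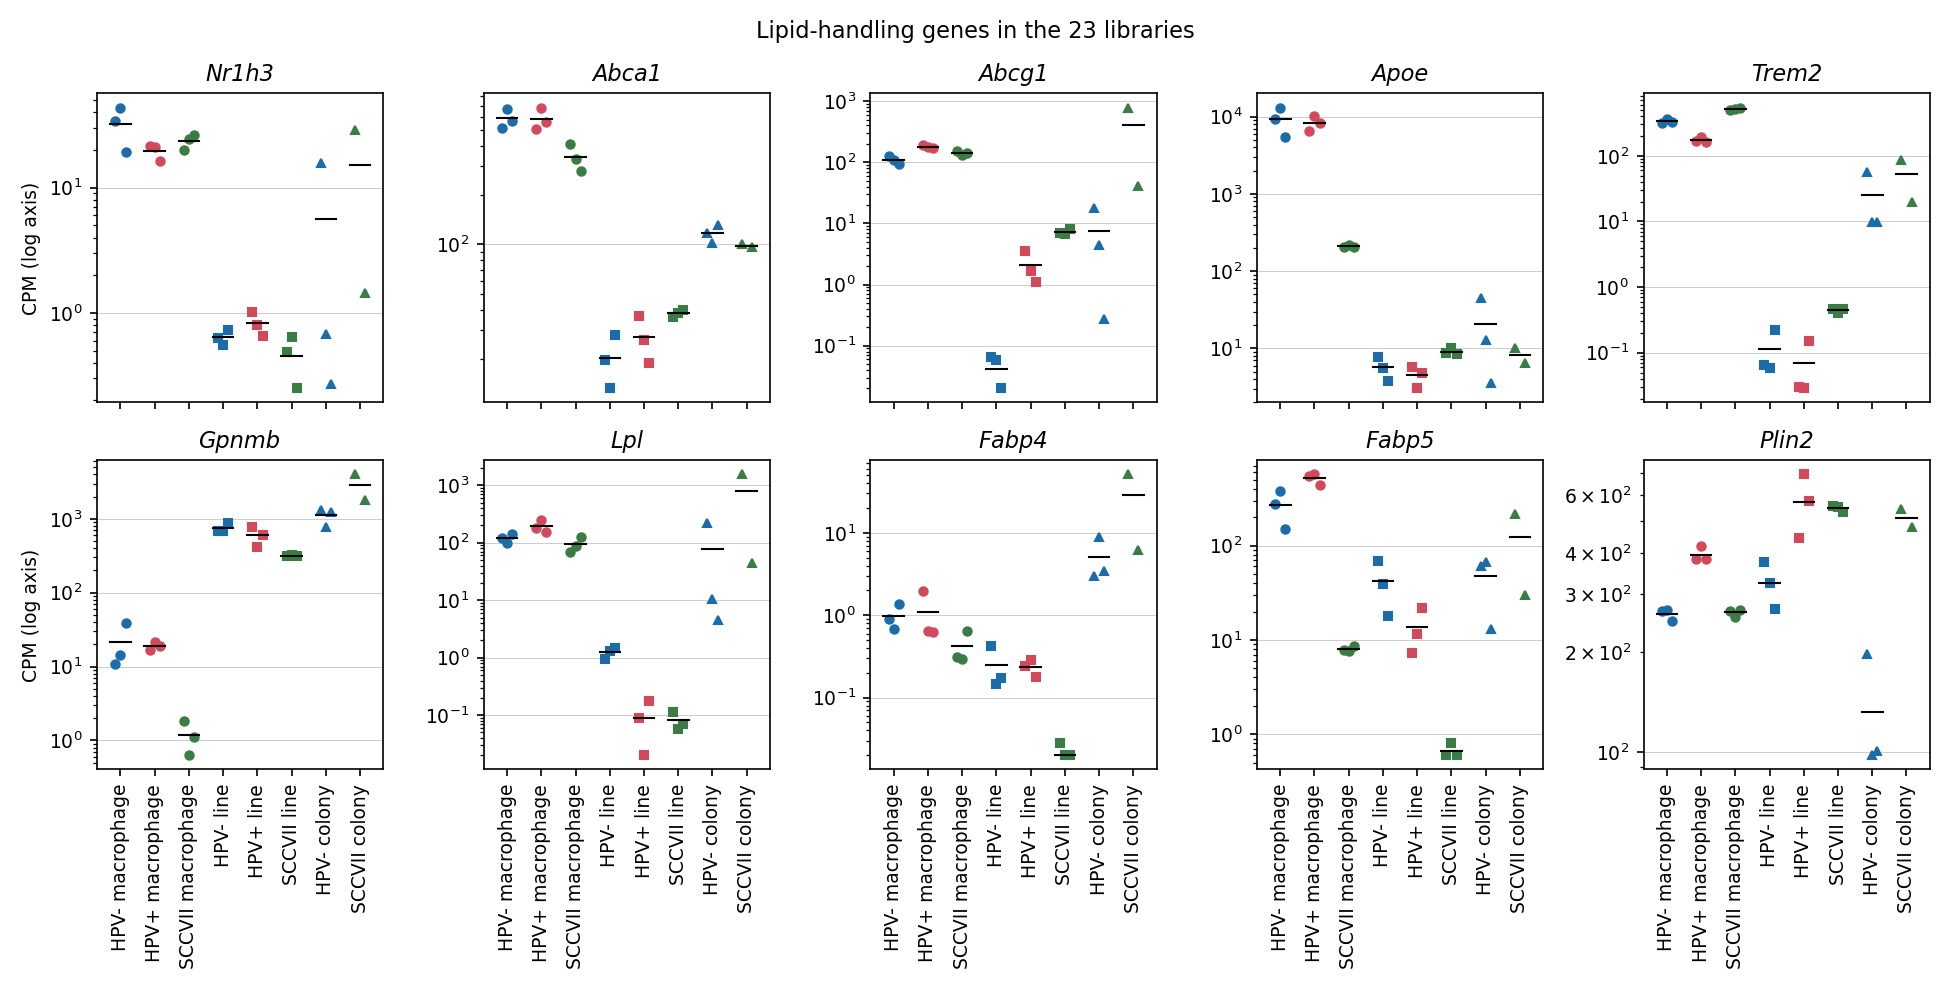
Level of each of the 10 genes in CPM (log axis) in the 23 libraries; each point is a library, the black bar is the group mean, and values under 0.02 CPM are drawn at 0.02. Apoe and Fabp5 separate SCCVII macrophages from MEER macrophages, Gpnmb is lowest in macrophages, and colony libraries of 1 group spread widely.

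Compared per length, in TPM (length-scaled transcript shares), Apoe led the 10 genes in MEER macrophages, with 14186 ± 5342 TPM (SD, n = 3) in HPV- MEER and 11005 ± 2043 TPM in HPV+ MEER, the ranks 2 and 4 of all genes. In SCCVII macrophages Trem2 led with 738 ± 23.3 TPM, and Apoe stood at 355 ± 4.93 TPM, rank 433. Plin2 stood at 280 ± 8.99, 342 ± 19.6 and 313 ± 17.3 TPM in HPV- MEER, HPV+ MEER and SCCVII macrophages. Fabp5 went from 434 ± 169 and 698 ± 96.9 TPM in HPV- and HPV+ MEER to 13.5 ± 0.580 TPM in SCCVII macrophages. Fabp4, the adipocyte relative of Fabp5, stayed at 1.15 to 2.75 TPM in the 3 macrophage groups. Of the 10 genes, 9, 9 and 8 had at least 1 CPM in every library of HPV- MEER, HPV+ MEER and SCCVII macrophages, 5, 6 and 5 in the lines, and 8 and 10 in HPV- MEER and SCCVII colonies.

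The first question was how these genes differ between macrophages of tumours with and without the virus. Relative to HPV- MEER, HPV+ MEER macrophages had more Abcg1, Lpl, Fabp5 and Plin2 and less Trem2 and Nr1h3, while the ranges of Apoe and Abca1 overlapped. The called ratios of means were 1.51 to 1.94. Of the 10 genes, 4 rose, 2 fell and 4 did not pass the test, against a background of 48.7% of 14085 tested genes called, 22.8% higher and 25.9% lower. The genes' median log2 change was 0.08, and that of all genes -0.05.

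LXRα itself, Nr1h3 (chr2:91184061-91202834, minus strand), was at 34.0, 43.7 and 19.2 CPM in HPV- MEER macrophages 1, 2 and 4 and at 21.7, 20.9 and 16.5 CPM in HPV+ MEER macrophages 1 to 3. The groups overlapped through HPV- MEER library 4. The log2 change was -0.68 ± 0.25 (SE; adjusted p = 0.0494, edgeR's quasi-likelihood test with Benjamini-Hochberg adjustment over all genes tested, used throughout). This call was lost with RLE scaling (adjusted p = 0.0583) and when any 1 of the 5 libraries other than HPV- MEER 4 was left out, with log2 changes of -0.41 to -0.76 and adjusted p of 0.0783 to 0.177.

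Abca1 (chr4:53030787-53159895, minus strand) moves cholesterol and phospholipid onto lipid-poor apolipoprotein, and stood at 515, 672 and 568 CPM in HPV- MEER and 504, 682 and 558 CPM in HPV+ MEER macrophages. The ranges nearly coincided (log2 change 0.02 ± 0.16, adjusted p = 0.94), and its sign turned with library totals only (-0.24), with no filter (-0.00373), with all libraries in 1 fit (-0.00912) and without 2 of the libraries (-0.07 without HPV- MEER 1, -0.12 without HPV+ MEER 2). Abcg1 (chr17:31057675-31117988, plus strand), which passes cholesterol to formed lipoprotein particles, was at 129, 107 and 94.9 CPM against 192, 177 and 172 CPM. Every HPV+ MEER library lay above every HPV- MEER library, 1.64-fold on the means (log2 change 0.73 ± 0.11, adjusted p = 0.00042).

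Apoe (chr7:19696109-19699188, minus strand), the apolipoprotein that macrophages secrete with exported cholesterol, was at 9250.5, 13131 and 5412 CPM in HPV- MEER macrophages and at 6613, 10284 and 8237 CPM in HPV+ MEER macrophages. The ranges overlapped, and the log2 change was -0.12 ± 0.27 (adjusted p = 0.748). It was 0.22 without HPV- MEER 2, the library with the most Apoe, and 0.03 without HPV+ MEER 1. Trem2 (chr17:48346401-48354147, plus strand), a receptor for lipids and apolipoproteins that signals through Tyrobp, was at 314, 366 and 333 CPM against 165, 192 and 165 CPM. No library overlapped, and Trem2 was 1.94-fold lower in HPV+ MEER macrophages (log2 change -0.93 ± 0.08, adjusted p = 2.42e-05).

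Gpnmb (chr6:49036546-49070929, plus strand), a lysosome-linked glycoprotein that MiT/TFE factors switch on, was at 10.9, 14.4 and 39.4 CPM in HPV- MEER macrophages and 16.9, 21.7 and 19.0 CPM in HPV+ MEER macrophages. The log2 change was -0.15 ± 0.44 (adjusted p = 0.801). Without HPV- MEER library 4 it was 0.63, with an adjusted p of 0.0483. That library also had the most of several genes of other cells: Krt8 at 59.0 CPM against 20.8 and 13.4, Col1a1 at 30.2 against 4.79 and 4.30, and Pdgfrb at 17.2 against 2.01 and 2.40 CPM. The epithelial list of 9 genes differed less than Krt8, at 146 CPM against 104 and 75.7. Of these 9, 5 stayed under 1 CPM in every library of the group. The fibroblast list of 7 genes, 1 of which stayed under 1 CPM in every library of the group, summed to 15.6 to 92.2 CPM over HPV- MEER macrophages. Their part in the Gpnmb value was not tested.

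Lpl (chr8:68880491-68907448, plus strand), which frees fatty acids from triglyceride, was at 119, 98.7 and 142 CPM in HPV- MEER macrophages and 180.1, 249 and 152 CPM in HPV+ MEER macrophages. The groups did not overlap, at a 1.62-fold ratio of means (log2 change 0.72 ± 0.25, adjusted p = 0.0371). The call was lost without HPV- MEER 1 (0.71, adjusted p = 0.0819), HPV- MEER 2 (0.59, 0.105), HPV+ MEER 1 (0.77, 0.0624) or HPV+ MEER 2 (0.49, 0.141), and with library totals only (0.45, adjusted p = 0.157).

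Fabp5 (chr3:10012548-10016607, plus strand), the epidermal fatty acid binding protein that macrophages also use, was at 275, 375 and 149 CPM in HPV- MEER and 549, 566 and 436 CPM in HPV+ MEER macrophages. It was 1.94-fold higher in HPV+ MEER macrophages with no overlap (log2 change 0.98 ± 0.26, adjusted p = 0.0124). Fabp4 (chr3:10204088-10208576, minus strand) was near 1 CPM: 0.907, 0.685 and 1.37 against 1.98, 0.651 and 0.628 CPM, from 96 and 74 counts in all. The groups overlapped (log2 change 0.15 ± 0.53, adjusted p = 0.839), and the value was -0.61 without HPV+ MEER 1 and -0.12 with library totals only. Plin2 (chr4:86648386-86670060, minus strand) was at 267, 268 and 249 CPM against 383, 419 and 383 CPM, 1.51-fold higher in HPV+ MEER macrophages with no overlap (log2 change 0.62 ± 0.06, adjusted p = 4e-05).

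A fit of all 23 libraries, whose spread takes in the uneven colonies, ended every one of these calls. It called 0 of the 10 genes with edgeR, with 1 at an unadjusted p under 0.05 and a smallest adjusted p of 0.0507, for Plin2 (log2 change 0.60). DESeq2 on the 9 macrophage libraries called 6 of 10. In bulk RNA, fewer cells of a kind and less RNA per cell cannot be told apart in any of these comparisons, and the part that the endothelial, epithelial, dendritic, NK and eosinophil markers of HPV+ MEER macrophages play was not tested. With library totals in place of TMM, the share of higher genes among those called went from 46.8% to 22.1% and the median of all genes from -0.05 to -0.30.

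**Figure D2:**
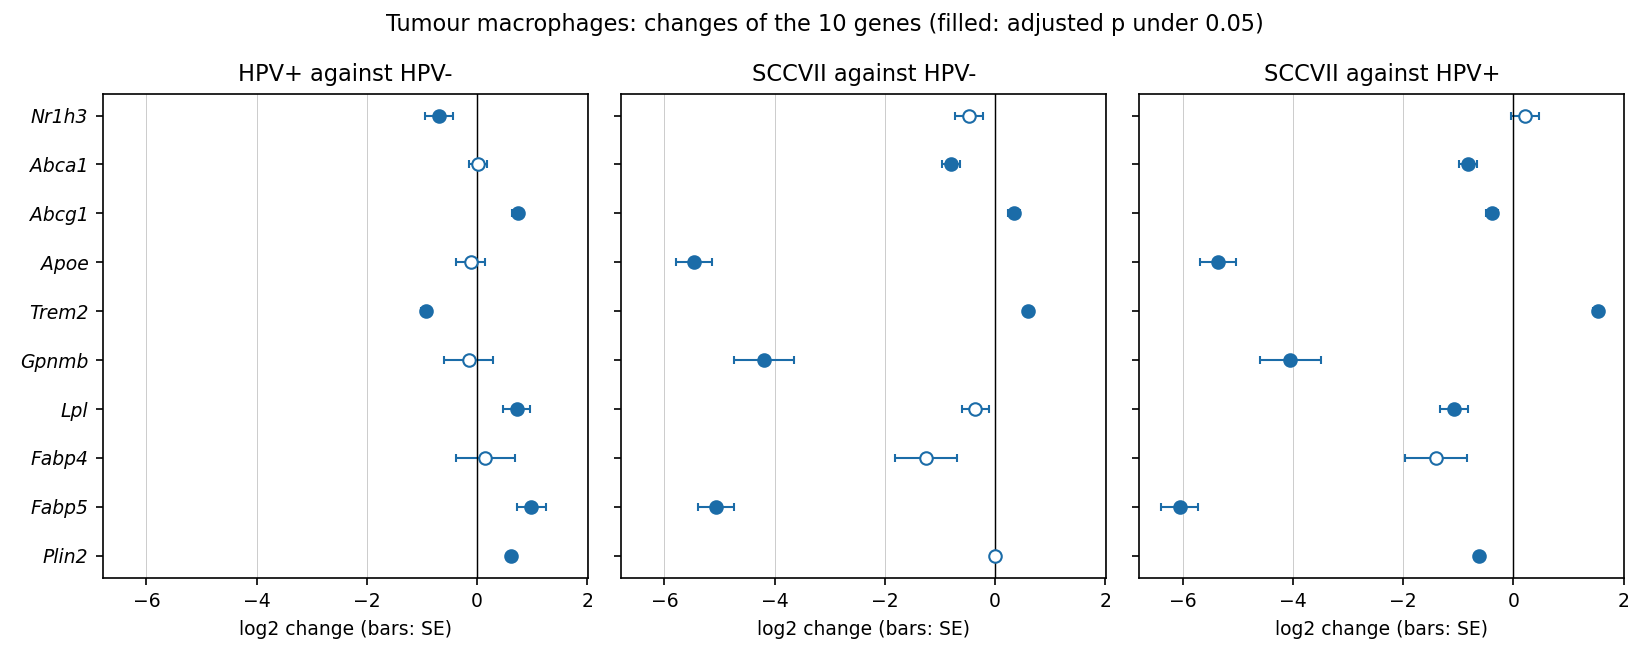
Log2 change (x axis, points with SE bars) of the 10 genes (y axis) in HPV+ against HPV- MEER, SCCVII against HPV- MEER and SCCVII against HPV+ MEER macrophages; filled points have an adjusted p under 0.05. Apoe, Fabp5 and Gpnmb lie at -4.04 to -6.05 in both SCCVII panels, and Trem2 lies above 0 there.

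SCCVII macrophages were set against each MEER group, and these comparisons share the SCCVII libraries. The T cell markers summed to 4.99 to 12.7 CPM in SCCVII macrophages against 39.4 to 70.4 CPM in the MEER macrophages, and 6 of 7 fell against HPV- MEER and 7 of 7 against HPV+ MEER. The NK markers summed to 5.69 to 9.66 CPM against 18.1 to 126 CPM, and 3 and 5 of 6 fell. The part of these markers in the changes was not tested. Apoe, Fabp5 and Gpnmb were many-fold lower in SCCVII macrophages, Abca1 was lower, and Trem2 was higher than in either MEER group. Lpl and Plin2 were lower than in HPV+ MEER and missed the test against HPV- MEER. Against HPV- MEER, 2 of the 10 genes rose, 4 fell and 4 missed the test, at a background of 39.2% called (18.7% higher, 20.5% lower), with a median of -0.64 against -0.02 for all genes. Against HPV+ MEER, 1 rose, 7 fell and 2 missed it, at a background of 63.2% (32.2% higher, 30.9% lower), with a median of -0.95 against 0.01. With library totals only, the share of higher genes among all called against HPV+ MEER went from 51% to 69.2% and the median of all genes to 0.27.

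Apoe was at 207, 219 and 207 CPM in SCCVII macrophages 1 to 3, against the 5412 to 13131 CPM of the MEER libraries. No SCCVII library came near a MEER library, and the ratio of means was 43.8 against HPV- MEER and 39.7 against HPV+ MEER. The log2 changes were -5.47 ± 0.33 (adjusted p = 2.31e-06) and -5.35 ± 0.32 (adjusted p = 7.37e-07). Its neighbour Apoc2, whose protein activates lipoprotein lipase, was at 0.205, 0.727 and 0.478 CPM in SCCVII macrophages. In HPV- MEER macrophages Apoc2 stood at 34.3, 44.9 and 24.8 CPM and in HPV+ MEER macrophages at 28.9, 38.6 and 31.3 CPM. The log2 changes of Apoc2 were -6.20 ± 0.34 (adjusted p = 1.42e-06) and -6.15 ± 0.34 (adjusted p = 4.41e-07).

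The other genes beside Apoe did not share this size of change. Tomm40, a subunit of the mitochondrial import pore, changed by -0.07 ± 0.06 against HPV- MEER (adjusted p = 0.408) and by -0.21 ± 0.06 against HPV+ MEER (adjusted p = 0.0142). Clptm1 fell by 0.24 and 0.31 on the log2 scale (adjusted p = 0.0367 and 0.00622). Relb, an NF-kB subunit, had log2 changes of -0.12 and -0.04 (adjusted p = 0.578 and 0.836), and Nectin2, an adhesion receptor, of 0.49 and -0.26 (adjusted p = 0.086 and 0.295). Apoc1 and Apoc4 were at most 0.529 CPM in every macrophage library. Against HPV- MEER 1 of the 6 neighbours tested rose and 2 fell, at a background of 39.2% of all genes called. Against HPV+ MEER 0 rose and 3 fell, at a background of 63.2%.

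Fabp5 was at 7.81, 7.70 and 8.57 CPM in SCCVII macrophages, far below the lowest MEER library at 149 CPM. The log2 changes were -5.07 ± 0.32 against HPV- MEER (adjusted p = 3.63e-06) and -6.05 ± 0.33 against HPV+ MEER (adjusted p = 4.16e-07). Part of the reads of Fabp5 fit elsewhere: 110 of the 3636 stretches of 75 bases in its transcripts (3.03%) also occur in 2 other genes, and its count was not whole in 21 of 23 libraries. A copy, Gm6166, named after its values were seen, had 6.37, 5.45 and 6.79 CPM in SCCVII macrophages against 0.358 to 2.26 CPM in MEER macrophages. With both copies added to Fabp5, an alternative chosen after the data were seen, the log2 changes were -4.25 (adjusted p = 9.15e-06) and -5.23. Fabp4 was at 0.308, 0.298 and 0.648 CPM in SCCVII macrophages, from 37 counts, with log2 changes of -1.26 ± 0.56 (adjusted p = 0.106) and -1.40 ± 0.57 (adjusted p = 0.0534). Against HPV+ MEER that passed the test with DESeq2 (adjusted p = 0.0396) and without HPV+ MEER 2 (0.0413), HPV+ MEER 3 (0.0394) or SCCVII 3 (0.0389).

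Gpnmb was at 1.85, 0.628 and 1.13 CPM in SCCVII macrophages, below every MEER library, 18-fold under the mean of HPV- MEER and 16-fold under that of HPV+ MEER. The log2 changes were -4.19 ± 0.55 (adjusted p = 0.000339) and -4.04 ± 0.55 (adjusted p = 0.000151). Tfec, a MiT/TFE factor of macrophages, was low in the same libraries, at 5.20, 4.26 and 4.16 CPM against 31.5 to 83.9 CPM in MEER macrophages. Its log2 changes were -3.51 ± 0.27 (adjusted p = 1.32e-05) and -4.09 ± 0.27 (adjusted p = 1.39e-06). Mitf, the founding factor of that family, was higher in SCCVII macrophages, by 0.30 ± 0.08 (adjusted p = 0.0152) and 0.63 ± 0.08 (adjusted p = 0.000113). Of 11 genes of the MiT/TFE list besides Gpnmb, 1 rose and 5 fell against HPV- MEER, where 39.2% of all genes were called. Against HPV+ MEER 3 rose and 5 fell, at a background of 63.2%.

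Trem2 was at 501, 511 and 543 CPM in SCCVII macrophages, above every MEER library, by 1.54-fold over HPV- MEER and 2.98-fold over HPV+ MEER on the means. The log2 changes were 0.60 ± 0.08 (adjusted p = 0.000447) and 1.53 ± 0.08 (adjusted p = 4.06e-07). Tyrobp, the adaptor through which Trem2 signals, was at 713 to 962 CPM in all 9 macrophage libraries, with log2 changes of -0.09 ± 0.10 and -0.13 ± 0.10 (adjusted p = 0.534 and 0.259). Of the 13 genes of TREM2 signalling besides Trem2, 3 rose and 2 fell in each of these comparisons. Of all genes 39.2% were called against HPV- MEER and 63.2% against HPV+ MEER, so these shares were near or under background. Among the called genes were Ms4a7 with 1.89 and Trem1, a related activating receptor, with -3.57 against HPV+ MEER.

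The exporters moved little beside Apoe. Abca1 was at 408, 332 and 281 CPM in SCCVII macrophages, under all 6 MEER libraries. It was 1.72-fold lower than in HPV- MEER and 1.71-fold lower than in HPV+ MEER (log2 changes -0.80 ± 0.16 and -0.82 ± 0.16, adjusted p = 0.00345 and 0.00149). Abcg1 was at 152, 132 and 142 CPM, between the MEER groups without overlap, with log2 changes of 0.35 ± 0.11 (adjusted p = 0.0272) and -0.39 ± 0.11 (adjusted p = 0.00938). The first was lost without HPV- MEER 2 (0.32, adjusted p = 0.0723), SCCVII 1 (0.30, 0.0968) or SCCVII 3 (0.35, 0.0667), and the second with library totals only (-0.13, adjusted p = 0.249). Nr1h3 was at 19.8, 24.3 and 26.2 CPM, inside the MEER range, with log2 changes of -0.48 ± 0.25 (adjusted p = 0.165) and 0.21 ± 0.26 (adjusted p = 0.502). Without HPV- MEER 4 the first was -0.74 (adjusted p = 0.00251).

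Lpl was at 69.7, 86.1 and 128 CPM in SCCVII macrophages, overlapping HPV- MEER (log2 change -0.36 ± 0.25, adjusted p = 0.283) and below HPV+ MEER (-1.08 ± 0.25, adjusted p = 0.00392). Plin2 was at 267, 257 and 269 CPM, overlapping HPV- MEER and 1.49-fold below HPV+ MEER. In TPM, Plin2 in SCCVII macrophages (293 to 326) overlapped HPV+ MEER (322 to 361) and lay above HPV- MEER (272 to 290). Its log2 changes were -0.00188 ± 0.06 (adjusted p = 0.985) and -0.62 ± 0.06 (adjusted p = 1.64e-05). The fit of all 23 libraries kept the calls of Apoe, Fabp5, Gpnmb and Abca1 in both comparisons and of Trem2 and Plin2 against HPV+ MEER. It ended those of Trem2 (0.62, adjusted p = 0.527) and Abcg1 (0.36, 0.864) against HPV- MEER and of Abcg1 (-0.35, 0.804) and Lpl (-1.04, 0.464) against HPV+ MEER.

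The genes around these 10 were read from lists of their pathways. Of all tested genes 48.7% were called in HPV+ against HPV- MEER, 39.2% in SCCVII against HPV- MEER and 63.2% in SCCVII against HPV+ MEER macrophages, and several lists below lie near or under these shares. In HPV+ against HPV- MEER macrophages, 11 of 16 lipid droplet and triglyceride genes besides Plin2 rose and 2 fell, with a median log2 change of 0.80. In SCCVII against HPV+ MEER, 4 of these 16 rose and 11 fell, with a median of -0.89, and against HPV- MEER 2 rose and 5 fell, with a median of -0.23. Hilpda, an inhibitor of droplet lipolysis, showed the contrast. It was at 48.6, 45.5 and 38.9 CPM in HPV- MEER, 332, 341 and 327 CPM in HPV+ MEER and 9.96, 10.4 and 12.6 CPM in SCCVII macrophages, 3 separate ranges. Its log2 changes were 2.94 ± 0.10 (adjusted p = 1.2e-07) in HPV+ against HPV- MEER, -2.03 ± 0.10 (adjusted p = 7.88e-07) in SCCVII against HPV- MEER and -4.97 ± 0.11 (adjusted p = 2.21e-09) in SCCVII against HPV+ MEER. Soat2, which esterifies cholesterol, had changes of 1.27, -2.69 and -3.96 in the same order, and Mgll, which cleaves monoacylglycerol, of 2.14, 3.44 and 1.3, at under 3 CPM in all macrophage libraries.

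Of 13 genes of LXR targets and regulators besides the members, 8 rose and 1 fell in HPV+ against HPV- MEER macrophages (median 0.34). In SCCVII macrophages 3 rose and 5 fell against HPV- MEER (median -0.19) and 3 rose and 10 fell against HPV+ MEER (median -0.55). The phospholipid transfer protein Pltp fell in the first comparison and rose in the others. It was at 394, 346 and 249 CPM in HPV- MEER, 112, 106 and 117 CPM in HPV+ MEER and 1605, 1777 and 1657 CPM in SCCVII macrophages. Its log2 changes were -1.53 ± 0.14 (adjusted p = 2.95e-05), 2.33 ± 0.15 (adjusted p = 3.13e-06) and 3.87 ± 0.16 (adjusted p = 6.26e-08). Mertk, a receptor for dying cells, had 0.97, -1.21 and -2.18. The second LXR gene Nr1h2 was at 104 to 137 CPM in all 9 macrophage libraries, with 0.38 ± 0.05 (adjusted p = 0.000136), 0.08 ± 0.05 (adjusted p = 0.194) and -0.30 ± 0.05 (adjusted p = 0.000308). The partner receptor Rxra had 0.02 (adjusted p = 0.897), -0.53 (adjusted p = 0.014) and -0.55 (adjusted p = 0.00637).

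Uptake and storage partners were mixed. The fatty acid and lipoprotein receptor Cd36 was at 14.8, 11.0 and 37.9 CPM in HPV- MEER, 36.7, 34.8 and 28.6 CPM in HPV+ MEER and 113, 101 and 104 CPM in SCCVII macrophages. It overlapped between the MEER groups (0.67 ± 0.38, adjusted p = 0.172) and rose in SCCVII macrophages by 2.29 ± 0.38 (adjusted p = 0.00124) and 1.63 ± 0.37 (adjusted p = 0.00371). Olr1, a receptor for oxidised lipoprotein, had 1.18, 3.36 and 2.18. Pparg, the fatty acid-sensing receptor upstream of Fabp4 and Plin2, had 1.06 (adjusted p = 0.00669), 1.47 (adjusted p = 0.00145) and 0.41 (adjusted p = 0.169). Of 12 uptake receptors, 4 rose and 2 fell, 3 rose and 1 fell, and 4 rose and 3 fell in the 3 comparisons, shares called near or under those of all genes. Of 9 PPAR genes besides the members 3 rose and 2 fell, 6 rose and 2 fell, and 4 rose and 2 fell.

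Of 11 further lipid-associated macrophage genes, 4 rose and 2 fell in HPV+ against HPV- MEER, 2 rose and 4 fell in SCCVII against HPV- MEER, and 2 rose and 6 fell in SCCVII against HPV+ MEER. Spp1, the secreted osteopontin, had 1.59 (adjusted p = 0.00308), -1.55 (adjusted p = 0.00445) and -3.14 (adjusted p = 3.56e-05). The lysosomal acid lipase Lipa, which releases cholesterol from engulfed lipoprotein, had 0.62 (adjusted p = 0.00125), 0.22 (adjusted p = 0.13) and -0.40 (adjusted p = 0.00926). Of 14 lysosomal lipid genes, 4 rose and 3 fell, 3 rose and 4 fell, and 4 rose and 6 fell. The ganglioside activator Gm2a had 1.60, -0.55 and -2.15. The osteoclast list of 8 genes, which overlaps the MiT/TFE list in Ctsk, Acp5 and Atp6v0d2, summed to 1433 to 2172, 1996 to 2433 and 147 to 231 CPM in HPV- MEER, HPV+ MEER and SCCVII macrophages, and 1, 2 and 2 of the 8 stayed under 1 CPM in every library of the group. Its part in the Gpnmb change was not tested.

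**Figure D3:**
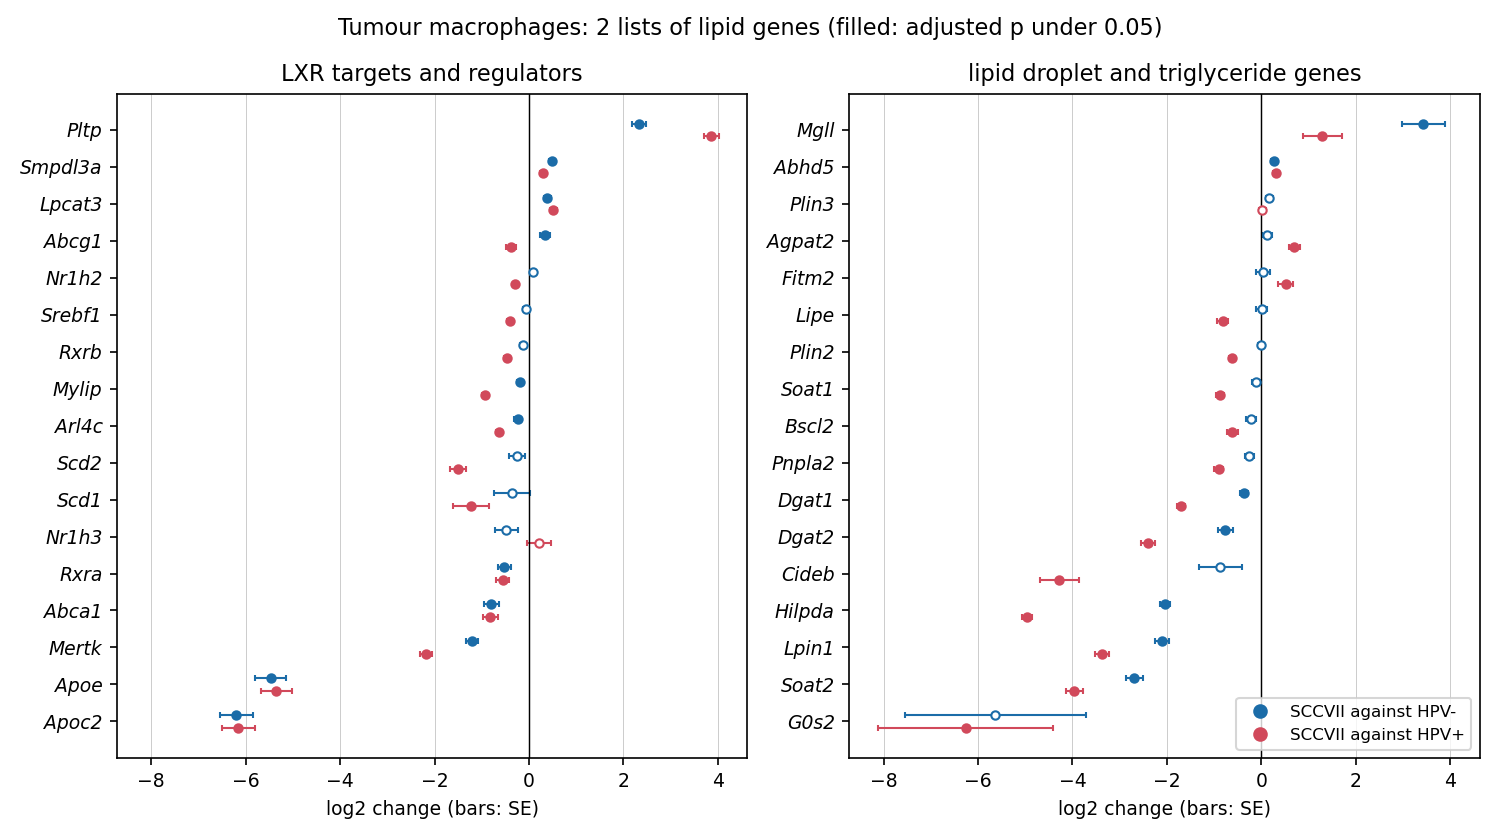
Log2 change (x axis, points with SE bars) of each tested gene of the LXR and the lipid droplet lists (y axis) in SCCVII macrophages against HPV- MEER (blue) and HPV+ MEER macrophages (red); filled points have an adjusted p under 0.05. Apoe and Apoc2 lie lowest among the LXR genes and Pltp highest, and Hilpda lies at -2.03 and -4.97.

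In the lines in culture the same genes were mostly low, apart from Gpnmb and Plin2. Between lines, Abcg1 was higher and Lpl lower in HPV+ MEER and in SCCVII than in HPV- MEER, and Fabp5 was lowest in SCCVII. Of 9 genes tested (Fabp4 did not pass the filter on low counts), 2 rose and 2 fell in HPV+ against HPV- MEER lines, at a background of 47% called (23.2% higher, 23.9% lower). In SCCVII lines 4 rose and 3 fell against HPV- MEER, at 58.8% (27.2% higher, 31.6% lower), and 3 rose and 2 fell against HPV+ MEER, at 64% (30% higher, 34.1% lower). These comparisons share their groups. The medians were -0.33, 0.57 and -0.15, against -0.01, -0.06 and -0.05 for all genes.

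Fabp5 was at 68.9, 39.2 and 17.8 CPM in the HPV- MEER line, 7.29, 11.6 and 22.0 in the HPV+ MEER line and 0.598, 0.811 and 0.607 CPM in the SCCVII line. The MEER lines overlapped and the SCCVII line lay below both. The log2 changes were -1.64 ± 0.47 in HPV+ against HPV- MEER (adjusted p = 0.0158), -6.05 ± 0.61 in SCCVII against HPV- MEER (adjusted p = 1.57e-05) and -4.41 ± 0.59 in SCCVII against HPV+ MEER (adjusted p = 8.99e-05). The first was lost without HPV- MEER 1 (-1.08, adjusted p = 0.0688), without HPV+ MEER 2 (-1.53, 0.0594) and with all libraries in 1 fit (-1.62, 0.0605). With its copies added, the SCCVII changes were -5.32 and -3.68.

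Abcg1 was at 0.0658, 0.0583 and 0 CPM in the HPV- MEER line, 4 counts in all, 3.51, 1.63 and 1.11 CPM in the HPV+ MEER line and 6.90, 6.61 and 8.00 CPM in the SCCVII line. The 3 ranges were separate, with log2 changes of 5.63 ± 0.69 (adjusted p = 0.000113), 7.32 ± 0.67 (adjusted p = 7.99e-06) and 1.69 ± 0.43 (adjusted p = 0.00584) in the same order. Lpl was at 0.955, 1.31 and 1.45 CPM in the HPV- MEER line and at most 0.176 CPM in the others, from 10 counts in the HPV+ MEER and 8 in the SCCVII line. Its log2 changes were -3.73 ± 0.64 (adjusted p = 0.000929), -3.96 ± 0.66 (adjusted p = 0.00049) and -0.23 ± 0.82 (adjusted p = 0.818). With all libraries in 1 fit the calls of Lpl were lost (adjusted p = 0.0839 and 0.0675), as was the third of Abcg1 (1.79, adjusted p = 0.116). Without HPV+ MEER 3 the third change of Lpl was 0.74, and without HPV- MEER 3 that of Trem2 between the MEER lines was 0.22.

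Gpnmb was high in each line, at 684, 675 and 891 CPM in HPV- MEER, 772, 417 and 608 CPM in HPV+ MEER and 317, 321 and 317 CPM in SCCVII. The MEER lines overlapped (-0.33 ± 0.20, adjusted p = 0.2; -0.57 and 0.0196 without HPV+ MEER 1), and the SCCVII line lay below both (-1.33 ± 0.20, adjusted p = 0.000262, and -1.0 ± 0.20, adjusted p = 0.00139). Plin2 was at 376, 325 and 270.3 CPM in HPV- MEER, 445, 691 and 573 CPM in HPV+ MEER and 554, 552 and 534 CPM in SCCVII. HPV- MEER lay below both others, with log2 changes of 0.80 ± 0.16 (adjusted p = 0.00245) and 0.66 ± 0.16 (adjusted p = 0.00534), and the others overlapped (-0.15 ± 0.16, adjusted p = 0.45; 0.02 without HPV+ MEER 2). Trem2 was at most 0.464 CPM in any line, from 13, 8 and 43 counts in the HPV- MEER, HPV+ MEER and SCCVII lines.

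Trem2 was called in the SCCVII line against both others (1.76 ± 0.62, adjusted p = 0.0324, and 2.46 ± 0.67, adjusted p = 0.00816). The first was lost with DESeq2 (adjusted p = 0.0837), with no filter (0.0585) and without any 1 of HPV- MEER 1, HPV- MEER 2 and the 3 SCCVII libraries (adjusted p of 0.0686 to 0.117). Apoe was at 3.04 to 7.80 CPM in the MEER lines and at 8.66, 10.1 and 8.57 CPM in the SCCVII line. It was called only against HPV+ MEER (0.93 ± 0.29, adjusted p = 0.0179), which was lost without HPV+ MEER 2 (0.71, 0.0647) or SCCVII 2 (0.86, 0.0576), while against HPV- MEER it was 0.57 (adjusted p = 0.115; 0.86 and 0.0309 without HPV- MEER 1). Abca1 was at 13.2 to 40.0 CPM in all line libraries, with 0.81 ± 0.28 in SCCVII against HPV- MEER (adjusted p = 0.0299). That call was lost without each of HPV- MEER 1, HPV- MEER 2 and the 3 SCCVII libraries (adjusted p of 0.0535 to 0.1). Nr1h3 was at 0.250 to 1.02 CPM and was not called (-0.92 in SCCVII against HPV+ MEER, adjusted p = 0.0634; -1.01 and 0.049 with library totals only). With all libraries in 1 fit the calls of Trem2 against HPV- MEER (1.83, 0.11), Apoe (1.02, 0.146) and Gpnmb (-0.91, 0.0755) against HPV+ MEER were lost.

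Set against the line of the same tumour, macrophages had more of 8 of the 10 genes in each of the 3 models and less Gpnmb. The background was 76.1%, 78.8% and 73% of 15835 tested genes called in HPV- MEER, HPV+ MEER and SCCVII, with 38.7%, 39.6% and 37.4% higher and 37.4%, 39.1% and 35.5% lower in macrophages, and the 10 genes' medians were 5.36, 5.08 and 4.56 against 0.01, 0 and 0 for all genes. With library totals only, the share of higher genes among all called went from 50.9% to 40% in HPV- MEER and from 50.3% to 33.1% in HPV+ MEER, and the medians of all genes were -0.30, -0.65 and -0.19. Trem2 was higher by 11.50 ± 0.26 in HPV- MEER (adjusted p = 1.49e-15), 11.29 ± 0.27 in HPV+ MEER (adjusted p = 2.04e-15) and 10.32 ± 0.23 in SCCVII (adjusted p = 1.73e-15). Apoe was higher by 10.79 ± 0.43, 11.03 ± 0.43 and 4.67 ± 0.33 (adjusted p = 1.52e-12, 1.04e-12 and 2.19e-09). Lpl differed by 6.70, 11.14 and 10.24, Abcg1 by 11.48, 6.62 and 4.45, Nr1h3 by 5.76, 4.74 and 5.77, Abca1 by 4.96, 4.58 and 3.29, and Fabp5 by 2.79, 5.41 and 3.70, all called. Some of these sizes are loosely set, because the lines had few counts. Trem2 had 13, 8 and 43 counts in the HPV- MEER, HPV+ MEER and SCCVII lines. Lpl had 10 and 8 in the HPV+ MEER and SCCVII lines, and Abcg1 had 4 in the HPV- MEER line.

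Gpnmb was lower in macrophages, by -4.99 ± 0.42, -4.80 ± 0.42 and -7.92 ± 0.51 (adjusted p = 2.05e-08, 2.43e-08 and 7.22e-10). The lines held it at 317 CPM or more and the macrophages at 39.4 CPM or less. Plin2 had smaller changes, with -0.19 ± 0.13 (adjusted p = 0.194), -0.36 ± 0.13 (adjusted p = 0.017) and -0.91 ± 0.13 (adjusted p = 8.92e-06). The second of these was lost without HPV+ MEER line 2 (-0.20, adjusted p = 0.134), macrophage 1 (-0.34, 0.0512) or macrophage 3 (-0.34, 0.0534), and the first passed with library totals only (-0.51, adjusted p = 0.000897). Fabp4 was higher in macrophages by 2.13 ± 0.57 in HPV- MEER (adjusted p = 0.00296) and 2.36 ± 0.58 in HPV+ MEER (adjusted p = 0.00141). In SCCVII it had 37 counts in macrophages and 1 count in the line, so no fold is given.

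The difference between HPV+ and HPV- MEER was compared between macrophages and lines in the same fit, which shares its libraries with the comparisons above. It differed for 3 of the 10 genes (2 more positive in macrophages, 1 more negative), at a background of 41% called (19.4% higher, 21.6% lower), with a median of 0.01 against -0.03 for all genes. Lpl was higher in HPV+ MEER macrophages and lower in the HPV+ MEER line, each against HPV- MEER, a difference of 4.44 ± 0.61 (adjusted p = 2.95e-05). Fabp5 did the same, with 2.61 ± 0.59 (adjusted p = 0.00214). The Lpl value rests on 133 counts in the HPV- MEER line and 10 in the HPV+ MEER line. Abcg1 was higher in HPV+ MEER in both, by less in macrophages, with -4.86 ± 0.70 (adjusted p = 4.52e-05), which rests on the 4 counts of the HPV- MEER line. With all libraries in 1 fit, Lpl (4.4, adjusted p = 0.1) and Abcg1 (-4.92, 0.0588) were lost. With library totals only, the share of higher genes among all called went from 47.3% to 25.9% and the median of all genes to -0.36.

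Colonies were compared with the macrophages of the same tumour model. The HPV- MEER colonies are in a table of their own, so any difference in handling goes with that group in each comparison that includes it. Gpnmb and Fabp4 were higher in colonies of both models, and Apoe, Trem2 and Abca1 were lower in both. Fabp5 and Plin2 were lower in HPV- MEER colonies and higher in SCCVII colonies. In HPV- MEER 2 of the 10 genes rose, 6 fell and 2 missed the test, at a background of 62.7% of 16238 genes called (34% higher, 28.7% lower), with a median of -2.40 against 0.02 for all genes. In SCCVII 4 rose, 3 fell and 3 missed it, at a background of 51.9% (29.7% higher, 22.3% lower), with a median of 1.24 against 0.07. The macrophage marker list summed to at least 14042 CPM in macrophages and at most 3752 CPM in colonies, and its part in these changes was not tested. With library totals only, the share of higher genes among all called in HPV- MEER went from 54.2% to 66.3% and the median of all genes to 0.31.

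Apoe was at 44.8, 13.0 and 3.62 CPM in HPV- MEER colonies 1 to 3 and at 10.0 and 6.54 CPM in SCCVII colonies 1 and 2. Every colony library lay below every macrophage library, by log2 changes of -8.79 ± 1.03 in HPV- MEER (adjusted p = 0.000199) and -4.68 ± 1.03 in SCCVII (adjusted p = 0.00461). Trem2 was at 57.0, 9.74 and 9.92 CPM and at 84.9 and 20.1 CPM, again below all macrophages, with -3.69 ± 0.80 (adjusted p = 0.0038) and -3.32 ± 0.93 (adjusted p = 0.0153). In both models the colony library numbered 1 held the most Trem2 and Apoe, as it held the most macrophage markers. Without SCCVII colony 2, which leaves 1 colony library of that model, the Trem2 change was -2.63.

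Abca1 was the most even gene over colonies, at 117, 102 and 130.4 CPM in HPV- MEER and 99.96 and 95.8 CPM in SCCVII colonies. It fell by 2.34 ± 0.18 and by 1.80 ± 0.21 on the log2 scale (adjusted p = 4.13e-05 and 0.000148), and library 1 did not stand apart. Abcg1 was uneven, at 18.1, 4.36 and 0.271 CPM in HPV- MEER and at 786 and 41.2 CPM in SCCVII colonies. It fell in HPV- MEER (-3.82 ± 1.32, adjusted p = 0.0308), a call lost without colony 2 (-3.47, 0.0963), macrophage 1 (-3.69, 0.0611) or macrophage 2 (-3.84, 0.0552). In SCCVII its change was 1.53 ± 1.3 (adjusted p = 0.349). It was -1.77 without colony library 1, with 1 SCCVII colony library left.

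Gpnmb was at 1323, 768 and 1240 CPM in HPV- MEER colonies and at 3985 and 1823 CPM in SCCVII colonies, against at most 39.4 CPM in a macrophage library of these models. It rose by 5.67 ± 0.68 (adjusted p = 0.000214) and 11.23 ± 0.87 (adjusted p = 1.86e-05), the second from 106 counts in the SCCVII macrophages. The cultured lines of these models held Gpnmb at 317 to 891 CPM. The fibroblast list summed to 451 to 1390 CPM in HPV- MEER and 2799 to 4141 CPM in SCCVII colonies. In macrophages of these models it summed to at most 92.2 CPM, and its part in the Gpnmb rise was not tested. Per length, Gpnmb reached 619 ± 150.3 TPM in HPV- MEER and 1108 ± 490 TPM in SCCVII colonies, rank 148 of all genes in the latter. Fabp4 was at 3.02, 8.92 and 3.47 CPM and at 50.9 and 6.18 CPM, above every macrophage library of its model. It rose by 2.34 ± 0.75 (adjusted p = 0.0229) and 6.07 ± 0.92 (adjusted p = 0.00063), the first lost without colony 2 (1.76, 0.079), macrophage 1 (2.28, 0.0677) or macrophage 2 (2.13, 0.0761). The adipocyte list, in which Lep was at 0, summed to 0.327 to 0.603 CPM in HPV- MEER and 2.55 to 3.71 CPM in SCCVII colonies, and its part in the Fabp4 change was not tested.

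Fabp5 was at 61.4, 67.2 and 13.1 CPM in HPV- MEER colonies, below the macrophages there, and at 214 and 29.9 CPM in SCCVII colonies, above them. The log2 changes were -2.49 ± 0.77 (adjusted p = 0.0196; -2.17 and 0.0575 without macrophage 2) and 3.91 ± 0.86 (adjusted p = 0.00461). The second was 1.91 without SCCVII colony 1. Its copy Gm6166 was at 148 and 16.4 CPM in the SCCVII colonies and at most 0.145 CPM in HPV- MEER colonies, and with both copies added the SCCVII change was 3.83. Plin2 was at 198, 97.6 and 101 CPM and at 543 and 478 CPM, below the macrophages of HPV- MEER and above those of SCCVII. Its changes were -0.98 ± 0.28 (adjusted p = 0.0129) and 0.94 ± 0.30 (adjusted p = 0.0265). The first was lost without colony 2 (-0.73, 0.053) or colony 3 (-0.74, 0.0509), and the second without any 1 of the 3 SCCVII macrophage libraries. With any 1 of the 5 SCCVII libraries left out the second was 0.87 to 1.02.

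Lpl and Nr1h3 rested on the libraries numbered 1. Lpl was at 217, 10.3 and 4.49 CPM in HPV- MEER colonies and 1541 and 43.7 CPM in SCCVII colonies, and both groups spanned the macrophage range. Its changes were -0.58 ± 1.39 (adjusted p = 0.733) and 3.05 ± 1.58 (adjusted p = 0.134). Without the library 1 of both models they were -4.07 and -1.10. Without HPV- MEER colony 1 alone the first was -4.00 (adjusted p = 0.0188). Nr1h3 was at 15.9, 0.673 and 0.271 CPM and at 28.7 and 1.44 CPM, with -2.45 ± 1.39 (adjusted p = 0.148) and -0.65 ± 1.5 (adjusted p = 0.74). Without the library 1 of both models it changed by -6.13 and -4.01. Without HPV- MEER colony 1 alone its first change was -6.06 (adjusted p = 0.00272). The fit without both libraries held 1 SCCVII colony library, so its calls are not counted.

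**Figure D4:**
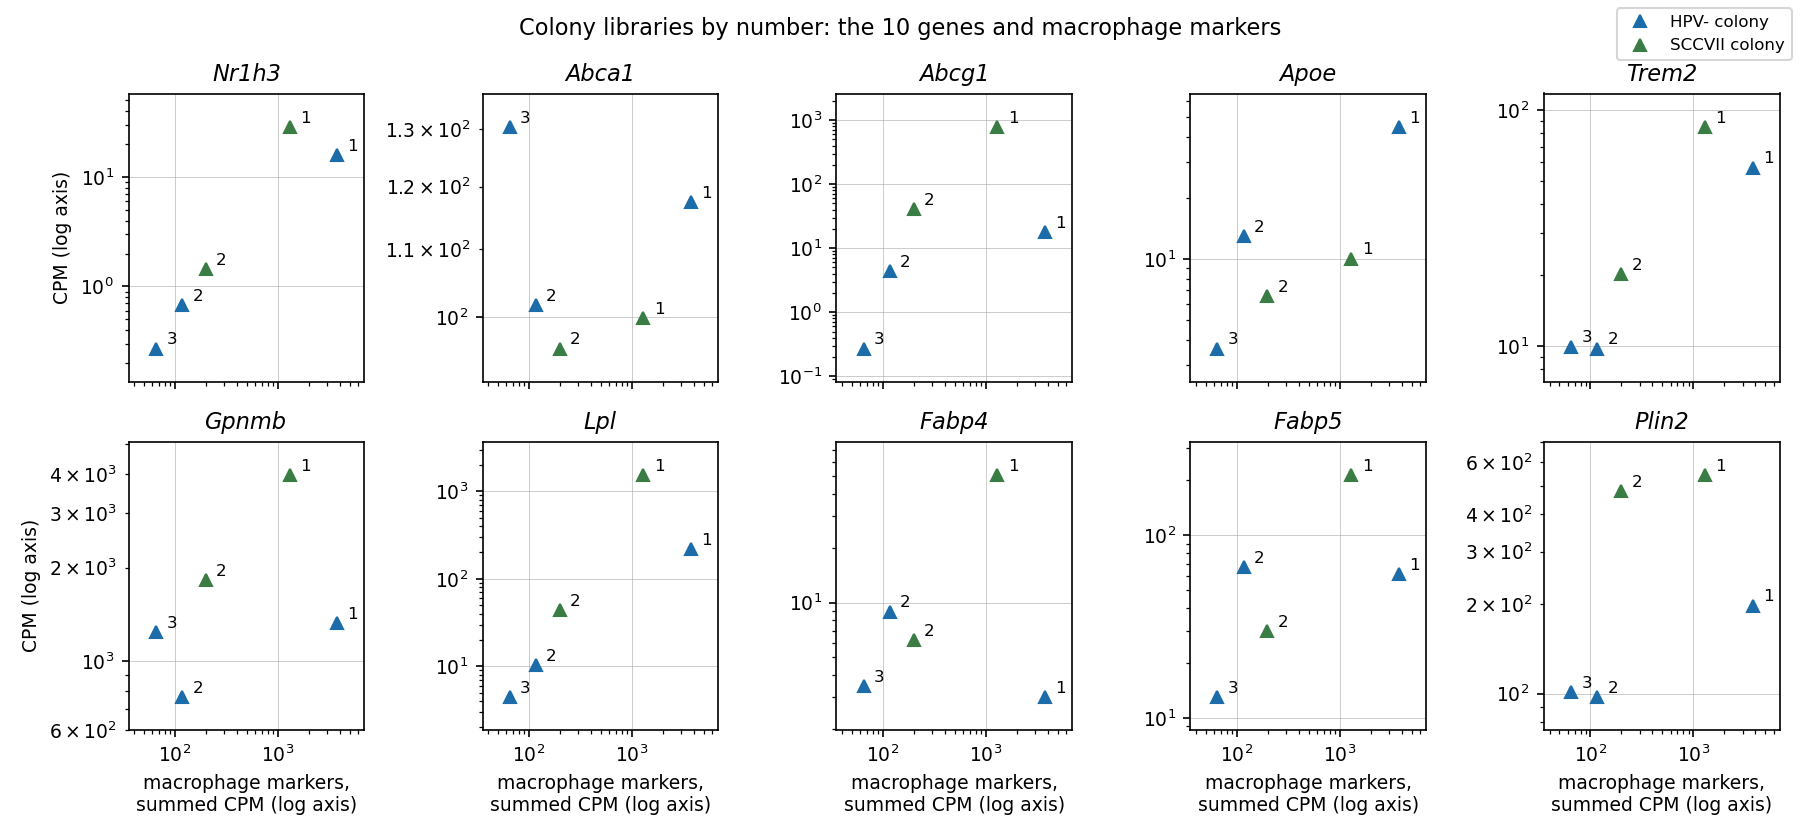
CPM of each of the 10 genes (y axis, log) against the summed CPM of 11 macrophage markers (x axis, log) in the 5 colony libraries, numbered as in the labels; blue is HPV- MEER and green is SCCVII. Libraries 1 lie to the right, at 3752 and 1299 CPM of markers, and are highest in their group for Nr1h3, Lpl, Abcg1 and Trem2.

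Between colonies, SCCVII had more Abcg1, Fabp4 and Plin2 than HPV- MEER, and the other 7 genes missed the test. Any difference in handling of the HPV- MEER colonies goes with this comparison. The background was 40.4% called (20.5% higher, 19.9% lower), and the genes' median was 1.36 against -0.02 for all genes. With library totals only, the share of higher genes among all called went from 50.7% to 36.8% and the median of all genes to -0.26. Plin2 did not overlap (1.93 ± 0.30, adjusted p = 0.00141) and was the gene of the 3 whose call no left-out HPV- MEER colony library ended. Abcg1 did not overlap either (5.70 ± 1.48, adjusted p = 0.0144), but was not called without HPV- MEER 2 (5.35, 0.0508). It was 2.40 without SCCVII 1, with 1 SCCVII colony library left. Fabp4 overlapped (2.48 ± 0.78, adjusted p = 0.0317), and was lost without HPV- MEER 1 (2.15, 0.069) or HPV- MEER 3 (2.18, 0.0964), and with library totals only (2.16, 0.0504). Without SCCVII 1 it was 0.31. Of the rest, Gpnmb had 1.38 (adjusted p = 0.1), Lpl 3.28 (adjusted p = 0.128), Fabp5 1.34 (adjusted p = 0.211), Apoe -1.35 (adjusted p = 0.239), Abca1 -0.25 (adjusted p = 0.338), Trem2 0.98 (adjusted p = 0.35) and Nr1h3 1.33 (adjusted p = 0.491).

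Some of these depended on 1 library. Without HPV- MEER colony 1, Trem2 (2.37, adjusted p = 0.00574), Lpl (6.69, 0.00522) and Nr1h3 (4.93, 0.0106) were called, and without SCCVII colony 1 they were -0.38, -0.87 and -2.02, with Fabp5 at -0.65. Without HPV- MEER colony 3 Apoe was called (-1.92, adjusted p = 0.0413). With all libraries in 1 fit 5 genes were called in place of 3, Gpnmb (1.39, adjusted p = 0.0168) and Lpl (3.36, 0.0232) being added. Gpnmb also passed with DESeq2 (1.33, adjusted p = 0.048). Without the libraries numbered 1 of both models, Trem2 was at 1.09, Lpl at 2.62, Fabp4 at 0.06 and Fabp5 at -0.37. That fit held 1 SCCVII colony library, so its calls are not given.

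The change from macrophage to colony was compared between the models, again with shared libraries. It was more positive in SCCVII than in HPV- MEER for 5 of the 10 genes and more negative for 0, at a background of 24.1% called (13.5% higher, 10.6% lower) by edgeR, with a median of 3.68 against 0.05 for all genes. With library totals only, the share of higher genes among all called went from 55.9% to 41.1% and the median of all genes to -0.18. The differences were 6.40 ± 1.16 for Fabp5 (adjusted p = 0.00551), 5.55 ± 0.87 for Gpnmb (adjusted p = 0.00311), 4.11 ± 1.12 for Apoe (adjusted p = 0.0285), 3.72 ± 1.11 for Fabp4 (adjusted p = 0.0396) and 1.92 ± 0.41 for Plin2 (adjusted p = 0.0104). For Apoe, Gpnmb and Fabp5 the macrophages of the models already differed, with less of each in SCCVII. The call of Apoe was lost without any 1 of HPV- MEER colony 2, HPV- MEER macrophages 1 and 2 and the 3 SCCVII macrophages. In these fits and without SCCVII colony 1 the value was 3.77 to 4.13. The call of Fabp4 was lost without any 1 of the macrophage libraries or of HPV- MEER colonies 1 and 3, and with library totals only (3.43, adjusted p = 0.0522). Without SCCVII colony 1, with 1 colony library of that model left, Fabp4 was at 1.55. Without the libraries numbered 1 of both models Fabp4 was at 1.3.

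The pathway lists were also counted in colonies against macrophages, where 62.7% of all tested genes were called in HPV- MEER and 51.9% in SCCVII. The difference between the models was not tested for the lists. Of 11 further lipid-associated macrophage genes, 2 rose and 3 fell in HPV- MEER colonies and 7 rose and 0 fell in SCCVII colonies, against the macrophages. The cathepsin Ctsl was at 1344 to 1831 CPM in HPV- MEER and 14193 and 17206 CPM in SCCVII colonies, against 465 to 482 CPM in SCCVII macrophages, and rose by 5.04 ± 0.22 (adjusted p = 2.2e-06). Of 17 lipid droplet genes, 6 rose and 6 fell in HPV- MEER and 9 rose and 1 fell in SCCVII colonies. Mgll rose in both, by 3.99 ± 0.98 (adjusted p = 0.00678) and 6.41 ± 0.99 (adjusted p = 0.000713), from 27.7 and 390.4 CPM in SCCVII colonies. Scd1, the desaturase that LXR and SREBP switch on, rose by 4.68 ± 0.47 (adjusted p = 0.000107) and 5.40 ± 0.50 (adjusted p = 4.84e-05), to 130 to 315 CPM.

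Of 13 TREM2 signalling genes, 0 rose and 5 fell in the colonies of either model by edgeR, a smaller share called than among all genes. Tyrobp was at 179, 10.7 and 0.452 CPM in HPV- MEER and 264 and 23.5 CPM in SCCVII colonies, against 713 to 962 CPM in macrophages, and missed the test (-3.69, adjusted p = 0.0723, and -2.52, adjusted p = 0.267). Of 11 MiT/TFE genes, 1 rose and 6 fell in HPV- MEER and 5 rose and 1 fell in SCCVII colonies. Ctsk, the osteoclast cathepsin, was at 3119 and 109 CPM in SCCVII colonies and 1.15 to 11.0 CPM in HPV- MEER colonies, so the SCCVII value is carried by library 1. Mitf was at 14.6, 5.15 and 7.57 CPM in HPV- MEER and 46.9 and 34.3 CPM in SCCVII colonies (2.13 ± 0.38, adjusted p = 0.00248). The scavenger receptor Marco was at 2678 CPM in HPV- MEER colony 1 and at most 104 CPM in any other library, and its call against macrophages (10.56 ± 3.50, adjusted p = 0.0259) rests on that library. Spp1 rose by 2.62 in both models (adjusted p = 0.000328 and 0.000401), to 6709.8, 13621 and 13510.4 CPM in HPV- MEER colonies and 4372 and 3341 CPM in SCCVII colonies.

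The order of the group means over all 8 groups differed from gene to gene. Trem2 was ordered SCCVII macrophages (518 ± 21.8 CPM), HPV- MEER macrophages (338 ± 26.2), HPV+ MEER macrophages (174 ± 15.5), SCCVII colonies (52.5 ± 45.8), HPV- MEER colonies (25.6 ± 27.2) and the lines. The ranges of the 3 macrophage groups were apart, and those of the colonies overlapped. Abca1 ran from HPV- MEER and HPV+ MEER macrophages (585 ± 79.8 and 582 ± 91.4 CPM, overlapping) over SCCVII macrophages (340.3 ± 63.5) and the colonies (117 ± 14.4 and 97.9 ± 2.97) to the lines (20.4 to 38.2, overlapping). Apoe stood highest in HPV- MEER and HPV+ MEER macrophages (9264 ± 3859.8 and 8378 ± 1839 CPM, overlapping) and then in SCCVII macrophages (211 ± 7.10), and the 5 groups of lines and colonies, at means of 4.50 to 20.5 CPM, overlapped in order.

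Fabp5 was led by HPV+ MEER macrophages (517 ± 70.7 CPM) and HPV- MEER macrophages (266 ± 114). SCCVII colonies (122 ± 130.0), HPV- MEER colonies (47.2 ± 29.7) and the HPV- and HPV+ MEER lines (42.0 ± 25.7 and 13.6 ± 7.56) followed with overlaps. SCCVII macrophages (8.03 ± 0.471) overlapped the HPV+ MEER line, and the SCCVII line (0.672 ± 0.120) was last and apart. Gpnmb was led by colonies (2904 ± 1528 CPM in SCCVII, 1110.1 ± 300 in HPV- MEER), then the lines (750 ± 122, 599 ± 178 and 319 ± 2.40) and then macrophages (21.6 ± 15.5, 19.2 ± 2.41 and 1.20 ± 0.614). Plin2 had the narrowest span, from 570 ± 123 CPM in the HPV+ MEER line to 132 ± 56.8 in HPV- MEER colonies.

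Lpl was led by SCCVII colonies (792 ± 1059 CPM), which overlapped the next group, HPV+ MEER macrophages (194 ± 50.1). HPV- MEER macrophages (120 ± 21.4), SCCVII macrophages (94.5 ± 29.9) and HPV- MEER colonies (77.3 ± 121) overlapped in order, and the lines were at 0.0811 to 1.24 CPM. Abcg1 was led by SCCVII colonies (414 ± 527 CPM), overlapping HPV+ MEER macrophages (181 ± 10.2). SCCVII macrophages (142 ± 10.1) and HPV- MEER macrophages (110.4 ± 17.2) followed without overlap, and HPV- MEER colonies (7.57 ± 9.34) overlapped the SCCVII line (7.17 ± 0.735). Nr1h3 was ordered HPV- MEER, SCCVII and HPV+ MEER macrophages (32.3 ± 12.3, 23.4 ± 3.26 and 19.7 ± 2.83 CPM), SCCVII and HPV- MEER colonies (15.1 ± 19.3 and 5.61 ± 8.90) and lines (0.457 to 0.826), and each of its 7 neighbouring pairs overlapped. Fabp4 was led by colonies (28.5 ± 31.6 CPM in SCCVII and 5.14 ± 3.29 in HPV- MEER), with all other groups at 0.00950 to 1.09 CPM.

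Across the 23 libraries, the correlation of log2(CPM + 0.5) was highest among the 10 genes for Abca1 with Trem2 (r = 0.947) and Nr1h3 with Trem2 (r = 0.923) and lowest for Apoe with Gpnmb (r = -0.734). These libraries share their groups, and the macrophage share of a library enters each value. Among 11433 genes, those most alike were C5ar2 and Tmem26 for Apoe (r = 0.993 and 0.990), Alox5ap and Erp29 for Trem2 (0.993 and 0.988), Treml2 and Tlr8 for Nr1h3 (0.986 and 0.983) and Arg1 and Tmem229b for Abca1 (0.979 and 0.972). They were Maged1 and Ereg for Gpnmb (0.977 and 0.971), Mfsd12 and Ehhadh for Abcg1 (0.974 and 0.967), Slc31a2 and Pla2g15 for Lpl (0.971 and 0.963), and Slc6a12 and Col24a1 for Fabp4 (0.943 and 0.928). For Plin2 they were Lsm12 and Eif4ebp1 (0.935 and 0.935) and for Fabp5 Ggta1 and Mmp19 (0.915 and 0.899).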

How the data were processed

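RNA-seq of 23 libraries was read from deposited tables of gene-level expected counts and TPM. The authors deposited expected counts and TPM from RSEM 1.3.0 after alignment with STAR 2.5.3a to mm10/GRCm38, with FastQC and MultiQC, per the submitters' processing notes. Libraries were made with a TruSeq stranded mRNA kit, per the labels' protocols. For the strand setting, annotation release and filters, nothing was given in the sources used here. The HPV- MEER colonies are in a table of their own, so any difference in handling goes with that group. The members and lists were chosen with earlier results of these data known.

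Of 36793 gene identifiers, 35243 (95.8%) were matched to symbols in the GENCODE annotation of GRCm38. Expected counts were rounded (13.1% of values were not whole) and tested with edgeR 4.0.16 (limma 3.58.1, R 4.3.3), by the quasi-likelihood test on TMM-scaled counts. Genes were kept by filterByExpr with a minimum count of 10 and a minimum total of 15, the prior count was 0.125, and an adjusted p of 0.05 was the threshold over all genes tested. Separate fits held the macrophages, the lines, macrophages with lines, and macrophages with colonies of HPV- MEER and SCCVII. All 10 genes passed the filter except Fabp4 in the line fit. CPM used TMM over 23 libraries. Depth was 26848759 to 47609481 counts, and replicate libraries differed beyond sampling noise (chi-square per gene of 3.23 or more). Each edgeR fit was tested on simulated data with less spread between replicates than the real libraries. The spread that edgeR estimated was 16% in the macrophage fit and 40.2% in the colony fit. The simulation therefore does not cover the colony calls.

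Besides the 10 genes, the text names from each list up to 2 called genes that rose most and up to 2 that fell most, fixed partner genes (Nr1h2, Rxra, Pparg, Tyrobp, Mitf, Cd36, Apoc1, Apoc2, Lipa, Spp1), neighbours of Apoe, marker genes and the 2 most alike genes per member (at least 10 CPM in some library). Xist, Gm6166 and other named genes were chosen after their values were seen. Promoter matches allow 3 mismatches for the LXR repeat, a limit set after the data were seen, and 2 for the PPAR repeat. Alternatives were DESeq2 1.42.0, RLE scaling, no scaling, no filter, all libraries in 1 fit, the replicate number as a block, and each library left out. Fabp5 with its copies summed and the colonies without libraries numbered 1 were added after the data were seen.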

Additional observations from a re-analysis of the deposited data

Results flagged for a closer look

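The change from macrophages to colonies differed between SCCVII and HPV- MEER by the interaction term of edgeR for 5 of the 10 genes. The differences on the log2 scale were 4.11 for Apoe, 6.40 for Fabp5, 1.92 for Plin2, 5.55 for Gpnmb and 3.72 for Fabp4, each more positive in SCCVII. Of these 5, Gpnmb alone was called under every alternative that keeps both SCCVII colony libraries. The difference between HPV+ and HPV- MEER also differed between macrophages and lines. It was more positive in macrophages by 4.44 for Lpl and 2.61 for Fabp5, and more negative by -4.86 for Abcg1. Of these 3, Fabp5 alone was called under every alternative. Lpl rests on 10 counts in the HPV+ MEER line and Abcg1 on 4 in the HPV- MEER line.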

How the results depend on the processing

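Of 125 log2 changes of the 10 genes (among the differences between changes, those called alone), 91 were called and 57 of these were called under every alternative. In comparisons with SCCVII colonies, these alternatives and those counted next include fits that leave 1 library in that group. Over 1566 alternative values, 1402 kept direction and side of the threshold, 102 lost and 28 gained the call, and 34 changed sign, none of them among called changes; the causes were not tested. With all libraries in 1 fit, the genes called were 3708 in place of 6853 in HPV+ against HPV- MEER macrophages and 2944 in place of 5527 in SCCVII against HPV- MEER, and the members called were 0 (from 6) in HPV+ against HPV- MEER macrophages, 2 (from 4) in those lines, 3 (from 5) in SCCVII against HPV+ MEER lines, 5 (from 3) between colonies and 1 (from 3) for the HPV difference between macrophages and lines. The colony difference between models had 3921 genes called, 5904 with DESeq2 and 7223 without colony libraries 1, and 8 in place of 5 members without those libraries. The HPV difference had 5 members in place of 3 with no scaling.

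Replicate numbers did not pair the samples (51 same-numbered pairs, 8 correlations over 0.1, from -0.176 to 0.382). With the replicate block, the colony difference had 1457 genes and 1 member called and the HPV difference 5 members, Gpnmb in HPV+ against HPV- MEER macrophages was 0.65, and Abcg1 in SCCVII colonies against macrophages was -0.16. The block ended the colony difference of Apoe (adjusted p = 0.107), Fabp4 (0.264), Fabp5 (0.0536) and Plin2 (0.0645) and the calls of Fabp4 in HPV- MEER colonies (0.0725) and between colonies (0.15) and of Plin2 in SCCVII colonies (0.0748). It added Apoe in HPV+ against HPV- MEER macrophages (-0.37, 0.0219) and Nr1h3 in SCCVII against HPV- MEER macrophages (-0.72, 0.00494). Signs also turned for Abca1 in HPV+ against HPV- MEER macrophages (-0.24 with no scaling, -0.00373 with no filter, -0.00912 with all libraries), Fabp4 there (-0.12 with no scaling), Plin2 in SCCVII against HPV- MEER macrophages (0.00495 with DESeq2, 0.00494 with RLE, 0.0106 with no filter, 0.0170 with all libraries), and, without colony libraries 1, Abcg1 (-1.77) and Lpl (-1.10) in SCCVII colonies against macrophages and Fabp5 (-0.37) between colonies.

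With 1 library left out, genes called ranged from 8479 to 11739 (HPV- MEER colonies against macrophages), 5000 to 8992 (between colonies), 2535 to 6949 (colony difference) and 4278 to 6233 (SCCVII against HPV- MEER macrophages). Members called ranged from 5 to 10, 1 to 5 and 3 to 7 in the first 3 of these, from 3 to 5 for the HPV difference, 4 to 7 in HPV+ against HPV- MEER macrophages, 3 to 5 in those lines and 4 to 7 in SCCVII against HPV+ MEER lines. Changes whose sign turned ranged in HPV+ against HPV- MEER macrophages from -0.12 to 0.12 (Abca1), -0.39 to 0.22 (Apoe), -0.61 to 0.46 (Fabp4) and -0.47 to 0.63 (Gpnmb), in SCCVII against HPV- MEER macrophages from -0.0289 to 0.0191 (Plin2), and in lines from -0.78 to 0.74 (Lpl) and -0.29 to 0.0176 (Plin2, SCCVII against HPV+ MEER) and -1.90 to 0.22 (Trem2, HPV+ against HPV- MEER). In colonies against macrophages they ranged from -4.00 to 0.0296 (Lpl, HPV- MEER), -1.77 to 2.45 (Abcg1, SCCVII), -1.10 to 4.01 (Lpl, SCCVII) and -4.01 to 0.28 (Nr1h3, SCCVII), and between colonies from -0.65 to 2.16 (Fabp5), -0.87 to 6.69 (Lpl), -2.02 to 4.93 (Nr1h3) and -0.38 to 2.37 (Trem2). Depth limits Fabp4 in macrophages (37 to 96 counts a group) and in lines (1 to 25), Abcg1 in the HPV- MEER line (4), Lpl in the HPV+ MEER and SCCVII lines (10 and 8) and Trem2 in the lines (8 to 43).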
